A study of Mus musculus with 7 samples.

Results

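Slpi and 5 other genes of the WAP-domain family (Wfdc1, Wfdc2, Wfdc3, Wfdc12 and Wfdc15b) were followed through 7 cultured fetal mouse kidneys. The 6 genes were taken by symbol from 23235 gene symbols in the deposited tables. Slpi had been selected on its FPKM values, which were higher in each E2-2 deleted library than in any wildtype library, and the others because they share its protein domain. The comparison of genotypes is therefore given for these genes as a description, and no p-value is read for them, though 4 of the 6 were in the fit across all genes.

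The E2-2 deleted group (3 libraries) and the E2-2 wildtype group (4 libraries) both carried activated beta-catenin, which turns on canonical Wnt targets, on a C57BL/6 strain. E2-2, encoded by Tcf4 in the mouse, is a transcription factor of the helix-loop-helix kind that binds the E-box. Per the labels' protocols, pregnant mice of both groups were injected with tamoxifen at 10.5 days post coitum (2 mg per 40 g of body weight). Kidneys were dissected at the same stage and grown on membranes for 3 to 4 days, so a library holds the mixed cells of a whole organ culture. The Cre driver, the alleles, the culture time per library and the animal behind each library are not stated in the labels. The p-values below therefore cover the spread between libraries alone, part of which may be technical. Replicate numbers follow the order of deposit.

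WAP-domain proteins are small secreted proteins held together by disulfide bonds and named after whey acidic protein of milk. Slpi, the secretory leukocyte peptidase inhibitor, blocks serine proteases such as neutrophil elastase and cathepsin G, and is made at mucosal surfaces and by neutrophils and macrophages. It also shields the growth factor progranulin from elastase. Wfdc2, known in humans as HE4, is a secreted product of ductal and tubular epithelia. Wfdc1, also called ps20, was described as a growth-inhibiting product of prostate stroma, and Wfdc12 and Wfdc15b encode antibacterial proteins of the mouse.

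By the deposited loci, 5 of the 6 genes lie on chromosome 2, in a cluster of WAP-domain genes, and Wfdc1 lies on chromosome 8 (122190265 to 122211920). Slpi spans 164179806 to 164182243, Wfdc15b starts 139.6 kb before it and Wfdc2 starts 208.4 kb after it. Starts are printed as the deposited start plus 1, to count from 1, and the deposited coordinates carry no build name. They differ from those of build GRCm38.p6, on which the promoter windows below are placed, so positions cannot be compared between them. The 250 bases before the annotated start of the 3 cluster members with clear transcript levels are shown, to set the promoter of Slpi beside those of its neighbours. They are RefSeq sequences of build GRCm38.p6, written 5′ to 3′ on the strand of the gene. Capitals mark every match, on either strand, to the E-box CANNTG. They also mark matches to a pair of words of the type bound by TCF/LEF factors, of which the first is CTTTGAT. The second of these words, also searched on both strands, is CTTTGTT.
Slpi (chr2:164356508-164356757, minus strand): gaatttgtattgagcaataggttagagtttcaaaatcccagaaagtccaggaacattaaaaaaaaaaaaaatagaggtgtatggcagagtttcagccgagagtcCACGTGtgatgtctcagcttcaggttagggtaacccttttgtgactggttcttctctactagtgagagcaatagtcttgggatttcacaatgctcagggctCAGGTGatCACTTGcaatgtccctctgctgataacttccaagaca
Wfdc15b (chr2:164221664-164221913, minus strand): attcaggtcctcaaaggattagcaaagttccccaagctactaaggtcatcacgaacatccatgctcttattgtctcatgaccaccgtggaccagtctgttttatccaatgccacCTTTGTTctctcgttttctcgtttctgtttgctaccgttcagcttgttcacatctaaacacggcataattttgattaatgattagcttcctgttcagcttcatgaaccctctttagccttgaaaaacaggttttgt
Wfdc2 (chr2:164562465-164562714, plus strand): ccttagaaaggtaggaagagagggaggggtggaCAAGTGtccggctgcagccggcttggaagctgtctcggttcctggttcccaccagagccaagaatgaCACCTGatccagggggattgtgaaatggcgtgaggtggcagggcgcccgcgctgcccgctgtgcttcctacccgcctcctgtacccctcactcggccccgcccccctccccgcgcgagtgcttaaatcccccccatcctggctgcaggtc

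The Slpi window held 3 E-box words, starting 146, 45 and 37 bases before the start, and the second of them reads CAGGTG. The Wfdc2 window held 2, at 217 and 150 bases before the start, and the second is the same word as that at 45 bases in Slpi, read on the opposite strand. The Wfdc15b window held no E-box word and a single CTTTGTT, 136 bases before the start. The windows of Wfdc3 and Wfdc12, not shown because both genes were near 0, held 5 and 0 E-box words. Among 27025 promoter windows of the same length, 66% held at least 1 CANNTG, 31.7% held 2 or more and 17.1% held its form CAGGTG on either strand. The share with CTTTGTT was 4.99%, and 3.23% held CTTTGAT. An E-box word is thus common in windows of this length, and a match is a description of letters, not of binding.

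Slpi separated the genotypes, with levels in the deleted kidneys that ranked among abundant transcripts. The Slpi level was 54.9, 306 and 58.1 FPKM (fragments per kilobase, a level corrected for transcript length and library depth) in E2-2 deleted replicates 1, 2 and 3, against 6.05, 4.75, 0.970 and 0.132 FPKM in E2-2 wildtype replicates 1, 2, 3 and 4. Every deleted library was above every wildtype library, and the lowest deleted value was 9.08 times the highest wildtype value. Deleted replicate 2 stood apart, at 5.57 times the lowest of its group. The wildtype values were also far apart from each other, 45.9-fold from the lowest to the highest. In a whole organ, fewer cells that express a gene and less of its RNA per cell cannot be told apart.

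The means of Slpi were 140 ± 144 FPKM (SD, n = 3) in deleted kidneys and 2.98 ± 2.87 FPKM (SD, n = 4) in wildtype kidneys, a ratio of 47. Without deleted replicate 2 the deleted mean was 56.5 FPKM, 19 times the wildtype mean of 2.98 FPKM. Without wildtype replicate 1 the wildtype mean was 1.95 FPKM. On the log2(FPKM + 1) scale the difference was 5.03 (deleted minus wildtype, SE 0.81). It ranged from 4.22 to 5.45 when any 1 library was left out. The names of 4 deposited libraries begin with BI and those of the other 3 with BM, a mark whose meaning the labels do not give. The Slpi difference was 4.36 within BI (2 deleted and 2 wildtype libraries) and 5.31 within BM (1 deleted and 2 wildtype libraries).

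The fragment number behind each value was inferred from the width of the interval that the authors deposited with it. Slpi rested on 828, 3802 and 953 inferred fragments in deleted replicates 1, 2 and 3, against 78, 49, 17 and 2 in wildtype replicates 1 to 4. The deposited intervals of the deleted libraries started at 51.1 FPKM, and those of the wildtype libraries reached at most 7.42 FPKM. Deleted replicate 2 had Slpi as its 100th highest gene of 22367. In deleted replicates 1 and 3 the level exceeded that of 93.1% and 93.2% of genes. In the wildtype libraries it exceeded that of 55.8%, 53%, 42.2% and 29.5% of genes.

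Of all 13466 genes tested with limma, 0 (0%) passed an adjusted p of 0.05. An unadjusted p under 0.05 was found for 605 genes (4.49%). The groups did not overlap in 382 genes with the deleted libraries higher (2.84%) and in 276 with the deleted libraries lower (2.05%). Slpi was the only gene of the 6 whose groups did not overlap. It had been chosen for that, so nothing is read from its count.

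**Figure D1:**
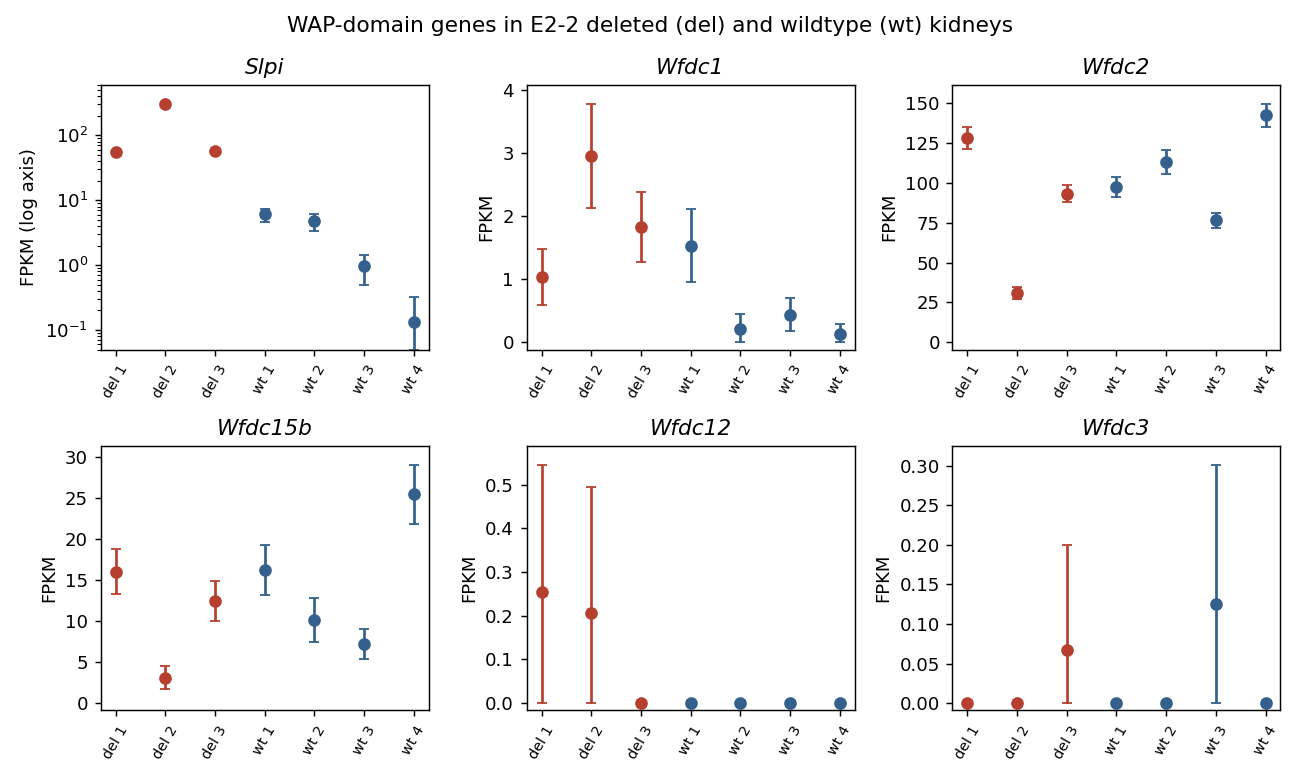
FPKM of the 6 WAP-domain genes in each library, E2-2 deleted (del, red) left of E2-2 wildtype (wt, blue); bars are the deposited intervals, and Slpi is on a log axis on which the lower bound of wt 4, which is 0, is drawn to the edge. Slpi lies between 54.9 and 306 FPKM in the deleted libraries and at or under 6.05 FPKM in the wildtype libraries, and Wfdc2 and Wfdc15b are lowest in del 2.

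Wfdc2, the epithelial member, was the most abundant of the 6 genes in 6 of the 7 libraries and showed no separation of the genotypes. Its level was 128, 30.8 and 93.3 FPKM in deleted replicates 1, 2 and 3, against 97.5, 113, 76.4 and 142 FPKM in wildtype replicates 1 to 4. The groups overlapped, and deleted replicate 2 was the lowest of the 7 libraries. The means were 84.1 ± 49.3 FPKM (SD, n = 3) in deleted kidneys and 107 ± 27.7 FPKM (SD, n = 4) in wildtype kidneys. The difference was -0.54 on the log2(FPKM + 1) scale (SE 0.46; -0.73 within BI, -0.16 within BM). Without deleted replicate 2 the deleted mean was 111 FPKM and the difference was 0.06.

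Wfdc15b, one of the antibacterial members, varied with Wfdc2 from library to library. Its level was 16, 3.12 and 12.4 FPKM in deleted replicates 1 to 3, against 16.2, 10.1, 7.21 and 25.4 FPKM in wildtype replicates 1 to 4. The groups overlapped, with deleted replicate 2 again lowest and wildtype replicate 4 again highest. The means were 10.5 ± 6.66 FPKM (SD, n = 3) in deleted kidneys and 14.7 ± 8.06 FPKM (SD, n = 4) in wildtype kidneys. The difference was -0.54 (SE 0.56; -0.72 within BI, -0.13 within BM), and 0.08 without deleted replicate 2.

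Over all 7 libraries the ratio of Wfdc2 to Wfdc15b had a narrower range than either level, through deleted replicate 2. Wfdc2 differed 4.62-fold and Wfdc15b 8.16-fold between the highest and the lowest library, and their ratio 2-fold. In the libraries other than deleted replicate 2, Wfdc2 ran from 76.4 to 142 FPKM and Wfdc15b from 7.21 to 25.4 FPKM. The ratio there still ran from 5.59 in wildtype replicate 4 to 11.2 in wildtype replicate 2, a range not narrower than that of Wfdc2. The ratio of Wfdc2 to Wfdc15b was 8.46 ± 1.26 (SD, n = 3) in deleted kidneys and 8.35 ± 2.95 (SD, n = 4) in wildtype kidneys. Wfdc15b in deleted replicate 2 rested on 19.3 inferred fragments, against 55.5 to 200.1 in the wildtype libraries.

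The library with the lowest Wfdc2 and Wfdc15b was also low in nephron progenitor transcripts. The summed level of the 6 progenitor markers was 280, 69.3 and 193 FPKM in deleted replicates 1 to 3, against 234, 154, 264 and 326 FPKM in wildtype replicates 1 to 4. Six2, a factor that maintains nephron progenitors, was at 2.69 FPKM in deleted replicate 2, against 29.0 to 74.8 FPKM in the wildtype libraries. Wt1, another factor of the developing nephron, was at 19.3 FPKM there, against 39.0 to 66.4 FPKM. Osr1, also on the progenitor list, was at 9.26 FPKM there, within its wildtype range of 7.23 to 12.6 FPKM. Ret, the receptor of the ureteric bud tip, was at 4.85 FPKM there, within its wildtype range of 2.00 to 11.7 FPKM. The 6 ureteric bud markers summed to 102, 37.7 and 100.3 FPKM in the deleted libraries, against 110, 68.5, 46.5 and 123 FPKM in the wildtype libraries. The sum was lowest in deleted replicate 2, where Gata3, at 15.4 FPKM, was at its highest of the 7 libraries. Calb1, one of the 6, was at 56.5, 5.43 and 60 FPKM in the deleted libraries, against 62.3, 28.1, 26.9 and 78.7 FPKM in the wildtype libraries. The general epithelial markers gave another order. Their summed level was 302, 227 and 188 FPKM in the deleted libraries, against 250, 254, 65.5 and 303 FPKM in the wildtype libraries, lowest in wildtype replicate 3. Per unit of Epcam, an epithelial adhesion molecule, Wfdc2 was at 2.07, 1.27 and 1.96 in the deleted libraries, against 1.66, 2.04, 3.54 and 2.09 in the wildtype libraries. The part of cell composition in these levels was not tested.

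Wfdc1, the stromal member, was low in every library, with its 2 highest values in deleted kidneys. Its level was 1.03, 2.95 and 1.82 FPKM in deleted replicates 1 to 3, against 1.53, 0.206, 0.436 and 0.137 FPKM in wildtype replicates 1 to 4. These values rested on 22, 52 and 43 inferred fragments in deleted libraries, against 28, 3, 11 and 3 in wildtype libraries. The groups overlapped through wildtype replicate 1, which was above deleted replicate 1. The means were 1.94 ± 0.966 FPKM (SD, n = 3) in deleted kidneys and 0.578 ± 0.649 FPKM (SD, n = 4) in wildtype kidneys. The difference on the log2(FPKM + 1) scale was 0.92 (SE 0.35; 0.70 within BI, 1.14 within BM). Wfdc1 passed the filter of a mean of 1 FPKM, with a mean of 1.16 FPKM over the 7 libraries, only through the deleted libraries and wildtype replicate 1. The summed smooth muscle markers did not follow it: they were at 1958 FPKM in deleted replicate 2 and 1904 FPKM in wildtype replicate 3, where Wfdc1 was at 2.95 and 0.436 FPKM.

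Wfdc12 and Wfdc3 were at the edge of detection and were not tested. Wfdc12 was at 0.253 and 0.205 FPKM in deleted replicates 1 and 2, on 3 and 2 inferred fragments, and was listed at 0 in deleted replicate 3 and in the 4 wildtype libraries. Wfdc3 was at 0.0666 FPKM in deleted replicate 3 and 0.125 FPKM in wildtype replicate 3, on 1 and 2 inferred fragments, and was listed at 0 in the other 5 libraries. At these numbers no difference between the genotypes could be read for either gene.

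Most other genes of the family had levels at or near 0 in both genotypes. Of 28 symbols searched, older and newer names included, 22 had a value, and 16 of these are not among the 6 genes above. Of the 16, 5 were listed at 0 in every library and 9 others stayed under 1 FPKM. Wfdc6a was at 0.0748, 0.409 and 0.283 FPKM in the deleted libraries and was listed at 0 in the 4 wildtype libraries. Expi went the other way, listed at 0 in the deleted libraries and in wildtype replicate 1 and reaching 0.263 FPKM in wildtype replicate 4. At such levels no difference between the genotypes could be read for either gene. Wfikkn2, which binds growth factors of the TGF-beta family, reached 1.40 FPKM in deleted replicate 3 and 1.91 FPKM in wildtype replicate 3, and its mean was under the filter. Papln, an extracellular matrix protein with a WAP domain, was the 1 further gene tested. It was at 4.36, 3.95 and 2.62 FPKM in the deleted libraries, against 2.84, 3.05, 1.86 and 3.12 FPKM in the wildtype libraries, a difference of 0.31 (SE 0.20, limma adjusted p = 0.795) within the spread between replicates.

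The tested genes around Slpi differed by -0.54 to 0.88 on the log2(FPKM + 1) scale, against 5.03 for Slpi. Within 500 kb there were 33 genes outside the family, of which 17 were tested. A positive difference was found in 6 and a negative one in 11, and the median was -0.09, against -0.05 over all genes tested. By limma 0 of the 17 passed, and in 2 (Ctsa and Pltp) every deleted library was above every wildtype library, as in 2.84% of all genes tested. Pltp, a phospholipid transfer protein, was at 27.5 ± 5.72 FPKM (SD, n = 3) in deleted kidneys and 17.1 ± 2.03 FPKM (SD, n = 4) in wildtype kidneys (difference 0.64, SE 0.15, limma adjusted p = 0.795). Ctsa, a lysosomal carboxypeptidase, differed by 0.33 (SE 0.14, limma adjusted p = 0.795). The loci of Ctsa and Pltp overlap in the deposited tables, and the use of strand in counting is not given, so their reads may be shared. Matn4, a cartilage-type matrix protein 35.3 kb from Slpi, was at 2.20 ± 1.72 FPKM (SD, n = 3) in deleted kidneys and 0.623 ± 0.367 FPKM (SD, n = 4) in wildtype kidneys. Its difference was 0.88 (SE 0.35, limma adjusted p = 0.795), the groups overlapped, and it passed the filter only through the deleted libraries. Matn4 overlaps Rbpjl, which was near 0. The seminal vesicle genes that lie between Wfdc15b and Slpi were at or near 0 in both genotypes.

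**Figure D2:**
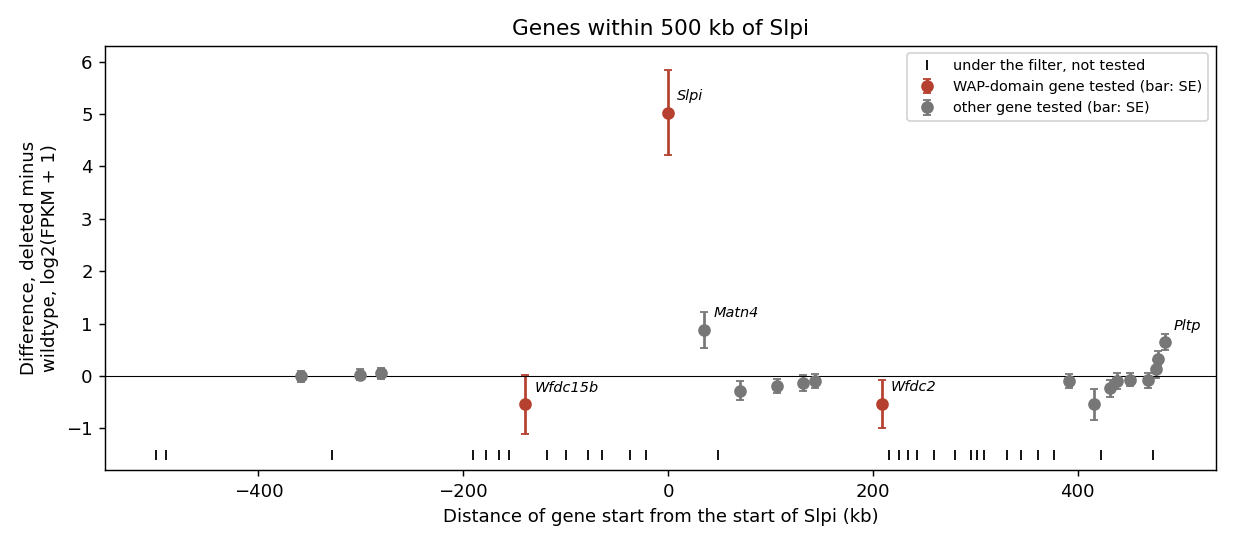
Difference of each gene within 500 kb of Slpi (deleted minus wildtype, log2(FPKM + 1), bars are SE) against the distance of its start from that of Slpi; ticks are genes under the filter. Slpi stands at 5.03, Wfdc2 and Wfdc15b at -0.54, and the other genes between -0.54 and 0.88.

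Most genes of a list of proteases were under 1 FPKM in every library. The list held proteases of neutrophils, mast cells and pancreas, not all of them known to be inhibited by Slpi, and Grn, which is not a protease. Of its 24 genes with a value, 20 were under 1 FPKM in every library and 8 of those were listed at 0. Elane, neutrophil elastase, was at or under 0.187 FPKM in the deleted libraries and at or under 0.0913 FPKM in the wildtype libraries. The 3 tested were Grn, Cela1 and Prtn3, and 0 passed by limma. Grn, which encodes progranulin, was at 99.7, 177 and 110 FPKM in the deleted libraries, against 90.7, 96.4, 120 and 71 FPKM in the wildtype libraries (difference 0.42, SE 0.24, limma adjusted p = 0.795). The groups overlapped, and the highest Grn was in the library with the highest Slpi. Cela1, an elastase-like enzyme, was at 2.55, 4.00 and 3.26 FPKM in the deleted libraries, against 2.92, 1.61, 3.52 and 3.03 FPKM in the wildtype libraries. Cela1 differed by 0.19 (SE 0.22) and Prtn3, proteinase 3 of neutrophils, by -0.04 (SE 0.22).

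Other protease inhibitors showed no common direction. Of 41 with a value, 23 were tested, 11 with a positive and 12 with a negative difference, a median of -0.06, and 0 passed by limma. A2m, the broad inhibitor alpha-2-macroglobulin, was at 5.96, 16.3 and 8.20 FPKM in the deleted libraries, against 3.05, 1.34, 0.511 and 6.44 FPKM in the wildtype libraries (difference 1.69, SE 0.55, limma adjusted p = 0.795). Its groups overlapped through wildtype replicate 4. Serpinb8, an intracellular serpin, differed by 0.93 (SE 0.32) and Spink3, a Kazal-type trypsin inhibitor, by -1.26 (SE 0.55), also with overlapping groups. Among 16 tested genes of innate defence, 10 had a positive difference, beside 39.3% of all genes tested. The median was 0.05 and 0 passed by limma. In 0 of the 16 was every deleted library above every wildtype library. In 1 every deleted library was below, as in 2.05% of all genes tested. Camp and Ngp, granule proteins of neutrophils, differed by 1.02 (SE 0.57) and 1.45 (SE 0.69), with overlapping groups. Both passed the filter of a mean of 1 FPKM only through the deleted libraries. Without deleted replicate 3 their differences were 0.32 and 0.55. Nfkbia, the inhibitor of NF-kappa-B, was at 38.8 ± 3.14 FPKM (SD, n = 3) in deleted kidneys and 34.1 ± 1.93 FPKM (SD, n = 4) in wildtype kidneys, with overlapping groups.

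The genes with patterns most like that of Slpi were found by Pearson correlation of log2(FPKM + 1) over the 7 libraries, a description of likeness among 13466 genes in which the gap between the genotypes takes part. The 8 nearest were Trpm1 (0.99), Hecw2 (0.99), Sez6l (0.98), Igfbp2 (0.98), Wnt6 (0.97), Scgb1a1 (0.97), Msx1as (0.97) and Wnt10a (0.97). Trpm1, a melanocyte and retinal ion channel, and Sez6l, a membrane protein of neurons, ordered the 7 libraries exactly as Slpi did. Scgb1a1, a secretory protein of airway club cells, was at 7.56 ± 6.28 FPKM (SD, n = 3) in deleted kidneys and 0.914 ± 0.599 FPKM (SD, n = 4) in wildtype kidneys. The Wnt ligand gene Wnt6 was at 29.9 ± 17.7 FPKM (SD, n = 3) in deleted kidneys and 7.19 ± 3.51 FPKM (SD, n = 4) in wildtype kidneys. Wnt10a, another Wnt ligand gene, was at 14.2 ± 8.44 FPKM (SD, n = 3) in deleted kidneys and 3.03 ± 1.51 FPKM (SD, n = 4) in wildtype kidneys. Igfbp2, which binds insulin-like growth factors, was at 123 ± 32.7 FPKM (SD, n = 3) in deleted kidneys and 67 ± 9.48 FPKM (SD, n = 4) in wildtype kidneys. Msx1as is antisense to Msx1, and without strand their reads cannot be told apart. Sez6l and Msx1as, like Scgb1a1, had wildtype means under the filter of 1 FPKM, at 0.630 and 0.496 FPKM. All of these passed it through the deleted libraries. The most opposite patterns were those of Pdf, a peptide deformylase (-0.98), Pars2, a mitochondrial tRNA synthetase (-0.97), and the zinc finger gene Zfp319 (-0.97), with differences of -0.27, -0.26 and -0.24.

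By the same measure, the nearest to Wfdc2 were Hdac11, a histone deacetylase, Dnmt3b, a DNA methyltransferase, and Hus1, part of a DNA damage checkpoint clamp (0.996, 0.995 and 0.994). The nearest to Wfdc15b were the nucleoporin gene Nup155, the centromere gene Cenph and Alg8, an enzyme of N-glycan assembly (0.998, 0.994 and 0.993). For Wfdc1 they were the GTPase gene Rab33a, Bean1 and the ectonucleotidase gene Entpd1 (0.98, 0.98 and 0.96). Each value is over 7 libraries, and the low values of deleted replicate 2 enter the first 2 sets.

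**Figure D3:**
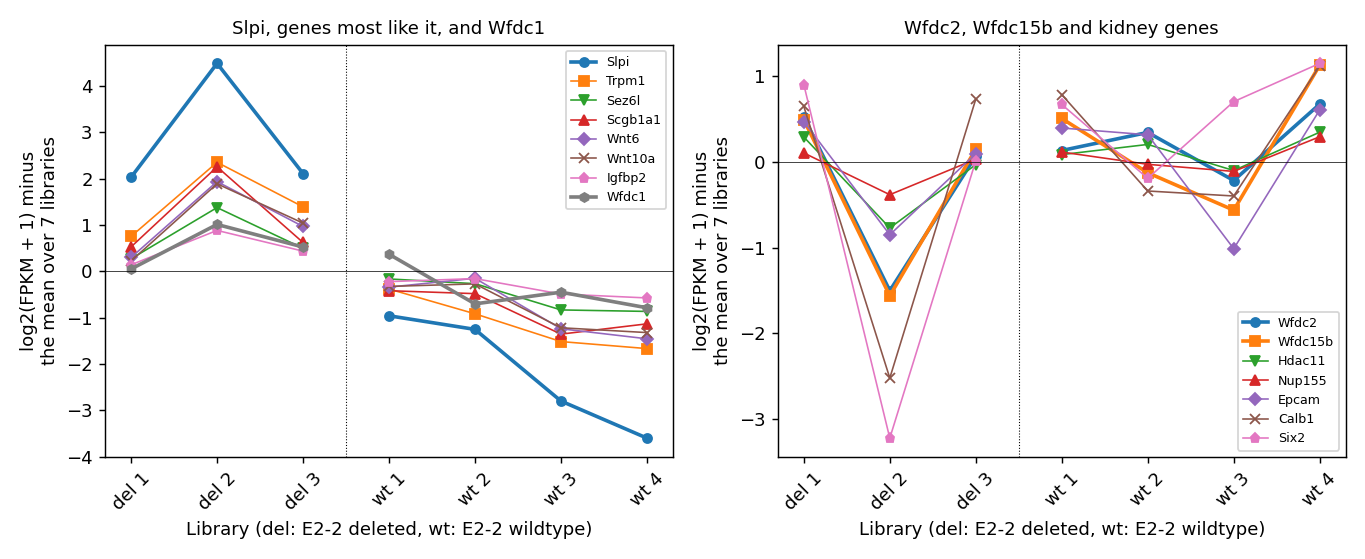
Level of each gene as log2(FPKM + 1) minus its mean over the 7 libraries, E2-2 deleted (del) left of E2-2 wildtype (wt), lines joining the values of 1 gene across libraries that have no order. Slpi and the genes most like it are above their mean in all 3 deleted libraries, highest in del 2, while Wfdc2, Wfdc15b, Calb1 and Six2 are lowest in del 2.

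Markers of cell types that could carry Slpi were read beside it. The summed level of 9 neutrophil markers was 43 to 187 FPKM in the deleted libraries and 1.63 to 18.6 FPKM in the wildtype libraries, without overlap and mostly from S100a8 and S100a9. Elane and Mpo, also on the neutrophil list, were under 1 FPKM in every library. In deleted replicate 2, which had the highest Slpi, Ngp and Camp were listed at 0, S100a8 was at 3.63 FPKM and S100a9 at 48.2 FPKM. All 4 tested neutrophil markers had a positive difference, as did 39.3% of all genes tested. Ngp and Camp, with wildtype means of 0.136 and 0.239 FPKM, passed the filter only through the deleted libraries, so nothing is read from this count. In 1 of the 4, S100a9, every deleted library was above every wildtype library, as in 2.84% of all genes tested. Mpo went the other way, with means of 0.135 FPKM in deleted and 0.305 FPKM in wildtype kidneys. Mpo, Ltf, Csf3r and Cxcr2 overlapped between the genotypes and were not tested. The part of neutrophils in the level of Slpi was not tested. Summed macrophage markers overlapped, at 135 to 273 FPKM in deleted libraries and 110 to 225 FPKM in wildtype libraries. Of 9 tested, 8 had a positive difference, beside 39.3% of all genes tested, and 0 had groups without overlap. The part of macrophages in the level of Slpi was not tested. Stratified epithelium markers overlapped too, at 5.72 to 7.97 FPKM in deleted libraries and 4.86 to 6.36 FPKM in wildtype libraries. Krt10, a keratin of maturing epidermis, reached 3.02 FPKM in deleted libraries and 3.56 FPKM in wildtype libraries, with overlap. The basal keratin gene Krt14 was at 0.377 to 1.75 FPKM in deleted libraries and 0.0605 to 0.330 FPKM in wildtype libraries, and Krt1, the partner of Krt10, was at 0.802 to 2.16 FPKM in deleted libraries and 0.255 to 0.791 FPKM in wildtype libraries. Trp63, a factor of basal epithelial cells, was at 0.634 to 1.01 FPKM in deleted libraries and 0.0693 to 0.624 FPKM in wildtype libraries. Krt5, Krt15 and Dsg3, also on the list, overlapped between the genotypes. Their means were 0.385, 0.682 and 0.0676 FPKM in deleted kidneys and 0.478, 0.710 and 0.0670 FPKM in wildtype kidneys. Krt14, Krt1 and Trp63 were low, and the wildtype values of each all lay under its deleted values. Of them Krt1 alone was tested, having passed the filter on mean FPKM through the deleted libraries, and 2.84% of all genes tested were likewise higher in every deleted library. The part of these genes in the level of Slpi was not tested. Summed mast cell markers reached 6.51 FPKM in the deleted libraries and 11.6 FPKM in the wildtype libraries, most of it Hdc.

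Melanocyte and enamel organ markers were higher in the same libraries as Slpi. The 8 melanocyte markers summed to 43.8 to 125 FPKM in deleted libraries and 8.40 to 33.6 FPKM in wildtype libraries, and 6 of the 7 tested were higher in every deleted library (2.84% of all genes tested were). Trpm1, chosen above for its likeness to Slpi, is a member of that list. The 7 enamel organ markers summed to 23 to 31.5 FPKM in deleted libraries and 0.572 to 10.2 FPKM in wildtype libraries, and both tested members, Ambn and Klk4, were higher in every deleted library, beside the same 2.84%. Amtn and Odam were listed at 0 in every library, and Amelx in all but deleted replicate 2. Tyr, Tyrp1 and Klk4 had wildtype means under the filter of 1 FPKM (0.277, 0.693 and 0.847 FPKM) and passed it through the deleted libraries. Both lists were chosen with earlier results of these data known, so the counts are a description only. By limma 0 markers of these lists passed. Their part in the level of Slpi was not tested.

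Tcf4 does not check the genotype here. It was at 33.5 to 42 FPKM in the deleted libraries and 28.7 to 58.1 FPKM in the wildtype libraries, and the deleted exons are not given in the labels. Kidney markers were found in every library, with the low Six2 of deleted replicate 2 as stated. The inferred depth was 17.6 to 24.8 mega-fragments in the deleted libraries and 14.5 to 26.6 in the wildtype libraries.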

How the data were processed

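Poly-A RNA of 7 cultured kidneys was sequenced after a TruSeq RNA preparation, per the labels' protocols. The authors deposited 1 table per library with FPKM and its lower and upper bounds, per the file headers. The submitters' processing notes list the tools CASAVA (version 1.8.2), TopHat2 (version 2.0.4) and Cufflinks (version 2.0.2) with no role for each. No source used here names the genome build or annotation. FPKM removes most differences in depth, but a shallow library measures a low gene less precisely.

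Of 23235 symbols, those with a failed or low-data status (203) and small RNAs (665) were left out, and entries of one symbol were summed. Dates stood in place of 25 symbols in 1 library, which were read from another library with identical loci. The 13466 genes with a mean of at least 1 FPKM were tested as log2(FPKM + 1), which understates changes of low genes, with limma 3.58.1 in R 4.3.3 (mean-variance trend, 2-sided, Benjamini-Hochberg over all genes tested, threshold 0.05). The fit was tested on simulated data.

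Fragments were inferred as the square of 2 times the FPKM over the distance to the upper bound. This is an inference: 78.8% to 80.2% of numbers under 300, for genes with 1 transcription start, were whole to within 0.05, where 10% would be by chance. Fragments without molecular identifiers are not independent molecules, so these numbers speak of counting error only.

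The 6 genes, the gene lists and the cell type markers were chosen with earlier results of these data known. Named genes were the 6; every other tested WAP-domain gene; the 3 of smallest p in each list and among genes within 500 kb of Slpi; Grn and Elane; and the genes nearest to each tested member by Pearson correlation (8 for Slpi with the 3 most opposite, 3 for each other), predicted genes passed over. Any further gene named was chosen after its values were seen. Alternatives were another pseudocount (0.1), median-of-ratios scaling, quantile normalization, no filter, a minimum of 5 FPKM, the BI or BM prefix as a term, a weight per library, and each library left out. Promoters matched 5 of the 6 genes.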

Additional observations from a re-analysis of the deposited data

Results flagged for a closer look

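Among 50 sets of 4 wildtype values checked, 3 held a library far from the others, and chance flags about 1 in 20. The summed smooth muscle markers were highest in wildtype replicate 3, at 1904 FPKM, with a gap to the next library of 0.842 of the range. Bean1, a gene with a pattern like that of Wfdc1, was at 7.19 FPKM in wildtype replicate 1, above the other 3, a gap of 0.848 of the range. Ctsa, a neighbour of Slpi, was at 45.2 FPKM in wildtype replicate 4, below the other 3, a gap of 0.894 of the range.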

How the results depend on the processing

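The difference of Slpi was 3.97 to 5.91 under the 14 alternatives. Slpi had been chosen for deleted libraries above every wildtype library, so nothing is read from its sign. Without deleted replicate 2 the differences of Wfdc2 and Wfdc15b, negative with all libraries, were 0.0626 and 0.0832 (lowest -0.948 and -0.941, without deleted replicate 1). That of Wfdc1 was 0.61 to 1.90. By limma 0 genes passed, with 1 gene under a weight per library and 1 with no filter, neither of them a WAP-domain gene; the cause was not tested. The 382 genes with every deleted library higher became 243 at a minimum of 5 FPKM and 638 with no filter, through the number of genes tested, and 490 to 1330 with 1 library left out; the 276 lower became 348 to 1422. The unadjusted count of 605 was 250 to 1473 with 1 library left out.

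Medians of lists moved as follows. The WAP-domain list, at 0.31, was -0.54 at a minimum of 5 FPKM and -0.00718 with no filter, where other genes enter, and 0.19 to 0.48 with 1 library left out. The protease list, at 0.19, was 0 with no filter and 0.0274 to 0.321 with 1 library left out. The inhibitor list, at -0.06, was 0.10 with a weight per library, 0.0472 with quantile normalization and -0.0328 to 0.0534 with 1 library left out. The neighbours of Slpi, at -0.09, were at -0.0303 with a weight per library, -0.0354 with median-of-ratios scaling, -0.00635 with no filter and -0.0906 to -0.0137 with 1 library left out. No paired analysis was possible because the labels give no replicate number shared between the genotypes. Depth limits Wfdc3, Wfdc12 and Wfdc1, which rest on few fragments.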
